A study of Mus musculus with 14 samples.

Results

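The genes described here are Trp53, which encodes the tumor suppressor p53, 4 of its textbook targets (Mdm2, Cdkn1a, Ccng1 and Bax), and 3 DNA repair genes (Msh6, Ogg1 and Mgmt). Every probe set whose gene symbol in the authors' deposited table equals one of these 8 names was taken, which gave 15 probe sets of the 22626 non-control probe sets in that table. The table names 13164 distinct symbols. A probe set is a group of short probes on the array that together give 1 intensity for a transcript. All 8 genes were present, and all their probe sets entered the tests. Of the 15 probe sets, 12 had a geometric mean intensity of at least 32 in 1 or more groups, a level called bright in what follows.

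The study compared mouse tumors of the distal colorectum from 2 models with tumor-free epithelium. Colitis-associated cancer (CAC) tumors came from 4 male C57BL/6J wildtype mice, 1 tumor per array. These mice had received azoxymethane, a DNA-alkylating carcinogen, at 10 mg/kg into the peritoneum, and then dextran sodium sulfate, an agent that damages the epithelium of the colon, in 3 cycles at 2.5% in the water for 7 days with 14 days of recovery after each. Sporadic tumors came from 5 male C57BL/6J-ApcMin/+/J mice, 1 tumor per array, which carry a truncating germline allele of the Wnt pathway suppressor Apc. CAC controls were 2 pools of 5 male C57BL/6J mice each, and the labels do not say whether those mice had received either agent. Sporadic controls were 3 pools of 4 male C57BL/6J-ApcMin/+/J mice each, so they carry the same Apc allele as the sporadic tumors. Controls were purified tumor-free distal colon epithelium, whereas tumors were used whole after the same incubation, so a tumor also holds stroma and immune cells. The labels put the CAC arrays in 1 experimental block and the sporadic arrays in another, so model and block cannot be told apart. No ages are stated.

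p53 is a transcription factor held low by Mdm2, a ubiquitin ligase that marks it for degradation and is itself a p53 target. DNA damage and other stress stabilise p53 protein, which then activates Cdkn1a (the cyclin-dependent kinase inhibitor p21), Ccng1 (cyclin G1, which recruits a phosphatase to Mdm2), Bax (which permeabilises mitochondria in apoptosis) and Mdm2. Msh6 takes part in recognising mismatched bases, Ogg1 excises oxidised guanine, and Mgmt removes alkyl groups from guanine, the kind of lesion that azoxymethane leaves. p53 activity is controlled mostly at the protein level, and the arrays measured RNA alone.

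The promoters of Trp53 and its 4 targets are printed here because p53 acts through DNA sites built from a motif of 10 letters. This motif, which is only a part of a full p53 site, is called the p53 consensus decamer. A further reason is that Bax RNA was higher and Cdkn1a RNA lower in the tumors of both models than in their controls. The sequences are RefSeq's on GRCm38.p6, from 250 bases before to 50 after each annotated start, 5′ to 3′ on the gene's strand, with matches to the decamer in capitals.
Trp53, chr11:69580109-69580408, plus strand: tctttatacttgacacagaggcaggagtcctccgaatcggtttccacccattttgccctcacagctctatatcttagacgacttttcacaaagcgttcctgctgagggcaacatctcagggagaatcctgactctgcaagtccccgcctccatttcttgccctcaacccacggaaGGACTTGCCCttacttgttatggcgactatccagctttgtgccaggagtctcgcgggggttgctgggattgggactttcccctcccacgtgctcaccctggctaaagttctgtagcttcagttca
Mdm2, chr10:117710709-117711008, minus strand: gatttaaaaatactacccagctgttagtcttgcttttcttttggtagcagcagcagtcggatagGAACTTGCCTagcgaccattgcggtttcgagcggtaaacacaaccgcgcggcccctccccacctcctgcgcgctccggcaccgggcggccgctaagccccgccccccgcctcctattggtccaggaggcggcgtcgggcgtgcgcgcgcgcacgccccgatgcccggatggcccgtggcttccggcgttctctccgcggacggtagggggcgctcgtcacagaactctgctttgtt
Cdkn1a upstream start, chr17:29090729-29091028, plus strand: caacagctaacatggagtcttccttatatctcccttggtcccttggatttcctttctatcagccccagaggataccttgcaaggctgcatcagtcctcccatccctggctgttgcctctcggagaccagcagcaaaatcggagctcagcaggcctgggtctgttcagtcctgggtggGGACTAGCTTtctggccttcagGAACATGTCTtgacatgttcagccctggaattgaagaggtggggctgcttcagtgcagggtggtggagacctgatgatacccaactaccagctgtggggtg
Cdkn1a downstream start, chr17:29093519-29093818, plus strand: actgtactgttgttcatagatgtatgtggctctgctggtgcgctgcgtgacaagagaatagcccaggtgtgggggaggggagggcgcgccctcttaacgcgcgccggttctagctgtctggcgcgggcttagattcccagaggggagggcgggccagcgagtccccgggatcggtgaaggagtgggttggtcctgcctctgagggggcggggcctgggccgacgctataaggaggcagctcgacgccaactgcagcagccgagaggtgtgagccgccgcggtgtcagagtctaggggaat
Ccng1, chr11:40755237-40755536, minus strand: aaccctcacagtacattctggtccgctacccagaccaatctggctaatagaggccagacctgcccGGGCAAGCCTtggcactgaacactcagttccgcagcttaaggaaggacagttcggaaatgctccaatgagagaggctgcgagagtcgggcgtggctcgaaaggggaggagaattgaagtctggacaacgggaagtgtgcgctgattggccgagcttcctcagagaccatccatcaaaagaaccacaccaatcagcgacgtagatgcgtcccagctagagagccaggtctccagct
Bax, chr7:45466849-45467148, minus strand: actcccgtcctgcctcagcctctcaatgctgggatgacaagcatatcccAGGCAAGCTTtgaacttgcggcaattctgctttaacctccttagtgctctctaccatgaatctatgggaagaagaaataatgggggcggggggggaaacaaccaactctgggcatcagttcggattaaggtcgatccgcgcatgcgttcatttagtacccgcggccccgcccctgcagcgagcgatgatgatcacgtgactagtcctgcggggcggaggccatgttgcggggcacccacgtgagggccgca
All 8 genes had a promoter in the RefSeq table, with 10 starts between them. The decamer, searched without mismatch on both strands, was in 5 of the 10 promoters and in 8.36% of all 32851 mouse promoters of the same length. Most of these genes were chosen as p53 targets, and the shares were not tested against each other. Counted from the start, the first base of the decamer lay at -75 in Trp53, -186 in Mdm2, -185 in Ccng1 and -201 in Bax. The upstream start of Cdkn1a had matches at -73 and -51, and the window of the downstream start, 2790 bases further along, held none. The windows of Msh6, Ogg1 and Mgmt held none. A match is a run of letters and not a measured binding site, and the arrays do not tell the starts of a gene apart. Sites outside these windows were not searched, so a p53 site of a gene may lie elsewhere.

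The authors deposited GCRMA intensities, a background-corrected and normalised brightness on a linear scale rounded to whole numbers. A log2 change is the difference of mean log2 intensities, given with the standard error of the limma fit, and a gene is said to have risen or fallen at a Benjamini-Hochberg adjusted p under 0.05 over all 22626 probe sets. Levels of different probe sets cannot be compared with each other. Median intensities of the 14 arrays lay between 15 and 18, and 9200 probe sets had a mean under 10 over the arrays, which is called near the floor here. CAC tumor 1 stood apart on the third principal component of the arrays, at 55.1 where the others had -19.1 to 12.2, and the calls that change without it, those of Mdm2 and Msh6, are given with and without it. No arrays were identical, and the labels call the arrays of a group biological replicates. The control samples are pools, which average the spread between mice, and their small number limits the precision. The summed intensity of 8 fibroblast and matrix markers was 5275 to 12536 in CAC tumors against 142 to 275 in their controls, and 7770 to 14820 against 53 to 75 in the sporadic model. For 12 proliferation markers it was 5661 to 7546 against 1714 to 2319 in CAC samples and 5425 to 9677 against 2267 to 3081 in the sporadic model. For 9 colonocyte markers, tumors had 16277 to 27912 against 54555 to 68523, and 12680 to 16538 against 28688 to 30415. Such sums are set mostly by the brightest markers. Of the 9 colonocyte markers 6 fell in each model. Of the 12 proliferation markers 10 rose in CAC tumors and 11 in sporadic tumors, and 1 fell in each model. Of the 8 fibroblast and matrix markers 7 rose in each model. The part of these shifts in the results below was not tested, and in such bulk samples fewer cells of a type and less RNA per cell cannot be told apart.

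Trp53 RNA rose more than 4-fold in the tumors of both models, Bax and Msh6 rose in both, and Mdm2 rose in the sporadic model. The CAC call of Msh6 was lost in several settings. Cdkn1a read lower in every tumor than in every control of its model, on both probe sets. On 1424638_at the CAC fall passed in the main fit, and the sporadic fall passed instead with only the groups compared. Of the 15 probe sets, 4 rose and 2 fell in CAC tumors against CAC controls, which is 40% of them beside a background of 39.9% of all probe sets called in either direction, 14.2% higher and 25.6% lower. In sporadic tumors against their controls 5 rose, beside a background of 46.0% called and 17.8% higher. None fell there by limma, also at an unadjusted p under 0.05, beside a background of 28.2% lower. Of all bright probe sets, 27.8% were higher in CAC tumors and 32.6% in sporadic tumors. Tumors and controls did not overlap on 7 probe sets in each model, beside 47.1% of all probe sets for CAC and 42.1% for sporadic arrays. The total shares are near the background, so the number of calls says nothing particular about these genes, and the description rests on each gene's values.

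**Figure D1:**
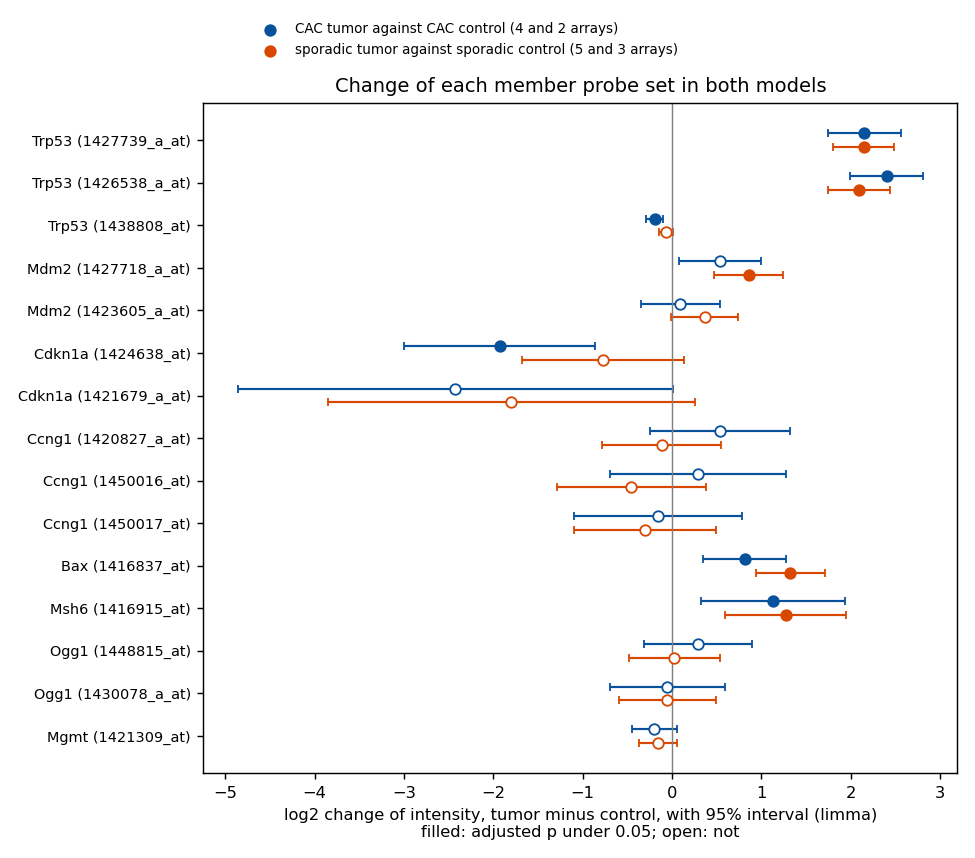
Log2 change of intensity from control to tumor for each of the 15 probe sets, with 95% intervals from limma, in the CAC model (4 and 2 arrays, blue) and the sporadic model (5 and 3 arrays, orange). Filled points have an adjusted p under 0.05. Both bright Trp53 probe sets lie at 2.09 or more in both models, while the Cdkn1a points lie below 0 with wide intervals.

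Trp53 was measured by 2 bright probe sets and 1 near the floor. On probe set 1427739_a_at the CAC tumors had intensities of 212, 144, 208 and 201 and the CAC controls 43 and 42. The sporadic tumors had 333, 384, 322, 376 and 351 and the sporadic controls 101, 64 and 78. Every tumor was above every control, and no group overlapped another. The log2 change was 2.15 ± 0.18 in the CAC model (adjusted p = 5.15e-06, limma) and 2.15 ± 0.16 in the sporadic model (adjusted p = 9.94e-07). Probe set 1426538_a_at gave 147, 130, 198 and 146 in CAC tumors against 30 and 28 in their controls. It gave 223, 249, 236, 328 and 261 in sporadic tumors against 63, 51 and 68. Its groups were again fully separate, with changes of 2.40 ± 0.19 (adjusted p = 2.05e-06) and 2.09 ± 0.16 (adjusted p = 1.31e-06). The log2 intensities of these probe sets followed each other closely, with r = 0.987 over the 14 arrays, which share groups and hybridisations.

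The order of the groups was the same on both bright Trp53 probe sets. Sporadic tumors were highest, then CAC tumors, then sporadic controls, and CAC controls were lowest, with geometric means of 352, 189, 79.6 and 42.5 on 1427739_a_at. CAC tumors were lower than sporadic tumors by a log2 difference of -0.90 ± 0.14 (adjusted p = 0.00176) and -0.75 ± 0.14 (adjusted p = 0.00557). CAC controls were lower than sporadic controls by a like amount, -0.91 ± 0.19 (adjusted p = 0.0110) and -1.06 ± 0.20 (adjusted p = 0.00477). On 1427739_a_at the control difference had an adjusted p of 0.138 when only the control arrays were fitted and 0.0577 without CAC control 2. The rise from control to tumor differed between the models by 0.01 (95% interval -0.53 to 0.54) and 0.31 (-0.23 to 0.85), neither of which passed the test (adjusted p = 1 and 0.518). These comparisons share arrays, and the offset between models is also the offset between blocks. The log2 ratio of the actin 3′ to 5′ control probe sets, a sign of RNA quality, was 0.79 ± 0.04 (SD, n = 4) in CAC tumors, 0.94 ± 0.06 (n = 2) in their controls, 1.08 ± 0.11 (n = 5) in sporadic tumors and 1.10 ± 0.22 (n = 3) in theirs, and its part in the offset was not tested.

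The remaining Trp53 probe set, 1438808_at, read 7 or 8 on every array. Its log2 change of -0.19 ± 0.04 in CAC tumors passed the test (adjusted p = 0.00379), but this is 4 arrays at 7 against 2 at 8, a single step of the rounded scale near the floor. After quantile normalization the change was -0.02 with an adjusted p of 0.781. RefSeq lists a Trp53 pseudogene in the mouse, and the files do not say whether the probes separate its RNA from that of Trp53.

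Mdm2, the ubiquitin ligase that restrains p53, had smaller changes than Trp53. On 1427718_a_at the CAC tumors read 100, 129, 147 and 185 and their controls 89 and 100. The sporadic tumors read 129, 133, 136, 146 and 159 and their controls 64, 85 and 85. The sporadic groups were separate, and CAC tumor 1 equalled CAC control 2. Mdm2 rose by 0.86 ± 0.17 in sporadic tumors (adjusted p = 0.00204, limma). In CAC tumors the change was 0.54 ± 0.21 (95% interval 0.08 to 0.99), which did not pass (adjusted p = 0.0580). It was 0.69 with an adjusted p of 0.00874 without CAC tumor 1. The difference between the models' changes was -0.32 (adjusted p = 0.545), and CAC and sporadic tumors had nearly equal means of 137 and 140. The other Mdm2 probe set, 1423605_a_at, read 10 on 10 of the arrays and at most 16, and passed in no comparison.

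**Figure D2:**
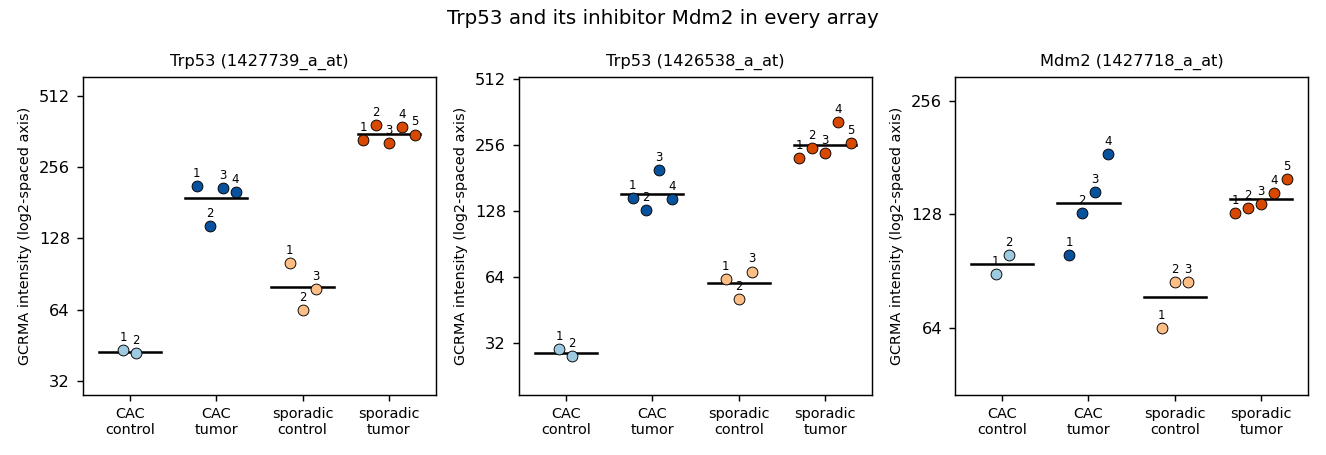
Intensity of the bright Trp53 and Mdm2 probe sets on each array (log2-spaced axis), with 1 point per array numbered by replicate and a bar at each group's geometric mean. Probe sets of these genes that are not bright are left out. Trp53 on 1427739_a_at spans 42 to 43 in CAC controls, 64 to 101 in sporadic controls, 144 to 212 in CAC tumors and 322 to 384 in sporadic tumors.

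Cdkn1a, the p53 target that halts the cell cycle, was lower in tumors of both models, with a wide spread among CAC tumors. On 1424638_at the CAC tumors read 333, 649, 233 and 1085 and their controls 2051 and 1653. The sporadic tumors read 727, 824, 958, 1074 and 1158 and their controls 1632, 1559 and 1594. Tumors and controls did not overlap in either model, although CAC tumor 4 read more than 4 times as high as CAC tumor 3. Cdkn1a fell by 1.93 ± 0.48 on the log2 scale in CAC tumors (adjusted p = 0.00820, limma). The sporadic change of -0.77 ± 0.41 (95% interval -1.67 to 0.13) did not pass (adjusted p = 0.156). These calls depended on which arrays set the error. With only the groups compared in the fit, the CAC change had an adjusted p of 0.118 and the sporadic change 0.00805. In the authors' deposited table the corrected p-values were 0.109 for the CAC model and 0.0078 for the sporadic model. Without CAC control 1 the CAC change was -1.77 with an adjusted p of 0.0644.

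The other Cdkn1a probe set, 1421679_a_at, varied still more. CAC tumors read 7, 52, 22 and 155 and CAC controls 167 and 192. Sporadic tumors read 121, 126, 24, 148 and 232 and sporadic controls 414, 312 and 373. Every tumor was below every control of its model, but the tumors spanned 7 to 155 in the CAC group and 24 to 232 in the sporadic group. The changes of -2.42 ± 1.10 in the CAC model (adjusted p = 0.105) and -1.80 ± 0.93 in the sporadic model (adjusted p = 0.146) did not pass. Without CAC tumor 4 the CAC change was -3.16 with an adjusted p of 0.0255. The tumors of the CAC model did not differ from sporadic tumors on either probe set by the test (adjusted p = 0.124 and 0.250). On 1424638_at that difference was -0.95 ± 0.37, and without CAC tumor 4 it was -1.34 with an adjusted p of 0.0149. The models' changes differed by -1.16 on 1424638_at (95% interval -2.56 to 0.24, adjusted p = 0.309). Over the 14 arrays the log2 intensities of the Cdkn1a probe sets correlated at 0.832.

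Ccng1, the cyclin G1 gene, passed the test in none of the comparisons on any of its 3 probe sets. On 1420827_a_at the CAC tumors read 316, 310, 389 and 737 and their controls 357 and 222. The sporadic tumors read 341, 341, 564, 330 and 341 and their controls 472, 395 and 359. Tumors and controls overlapped in both models, and CAC tumor 4 and sporadic tumor 3 stood above the rest of their groups. The changes were 0.54 ± 0.36 (adjusted p = 0.269) and -0.12 ± 0.30 (adjusted p = 0.859). The other probe sets, 1450016_at and 1450017_at, gave CAC changes of 0.29 and -0.15 and sporadic changes of -0.46 and -0.30, with adjusted p of 0.372 or more. Without CAC tumor 4, the difference between CAC and sporadic tumors on 1450017_at was -0.83 with an adjusted p of 0.0424. CAC tumor 4 was again the highest of its group, at 331 where the other tumors had 88 to 126 and at 211 where they had 69 to 82. Sporadic tumor 3 was likewise highest, at 202 and 213. The 3 probe sets correlated with each other at 0.722 to 0.833 over the 14 arrays.

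Bax, the apoptosis effector, rose in both models. CAC tumors read 454, 436, 501 and 640 against 269 and 303 in their controls. Sporadic tumors read 668, 680, 575, 431 and 493 against 195, 220 and 260. Every tumor was above every control, and the tumor groups overlapped each other. The change was 0.81 ± 0.21 in CAC tumors (adjusted p = 0.00913, limma) and 1.33 ± 0.18 in sporadic tumors (adjusted p = 1.13e-04). The models' changes differed by -0.51 ± 0.27 (95% interval -1.12 to 0.09), which did not pass (adjusted p = 0.289). Without CAC control 1 the CAC change was 0.73 with an adjusted p of 0.0748.

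**Figure D3:**
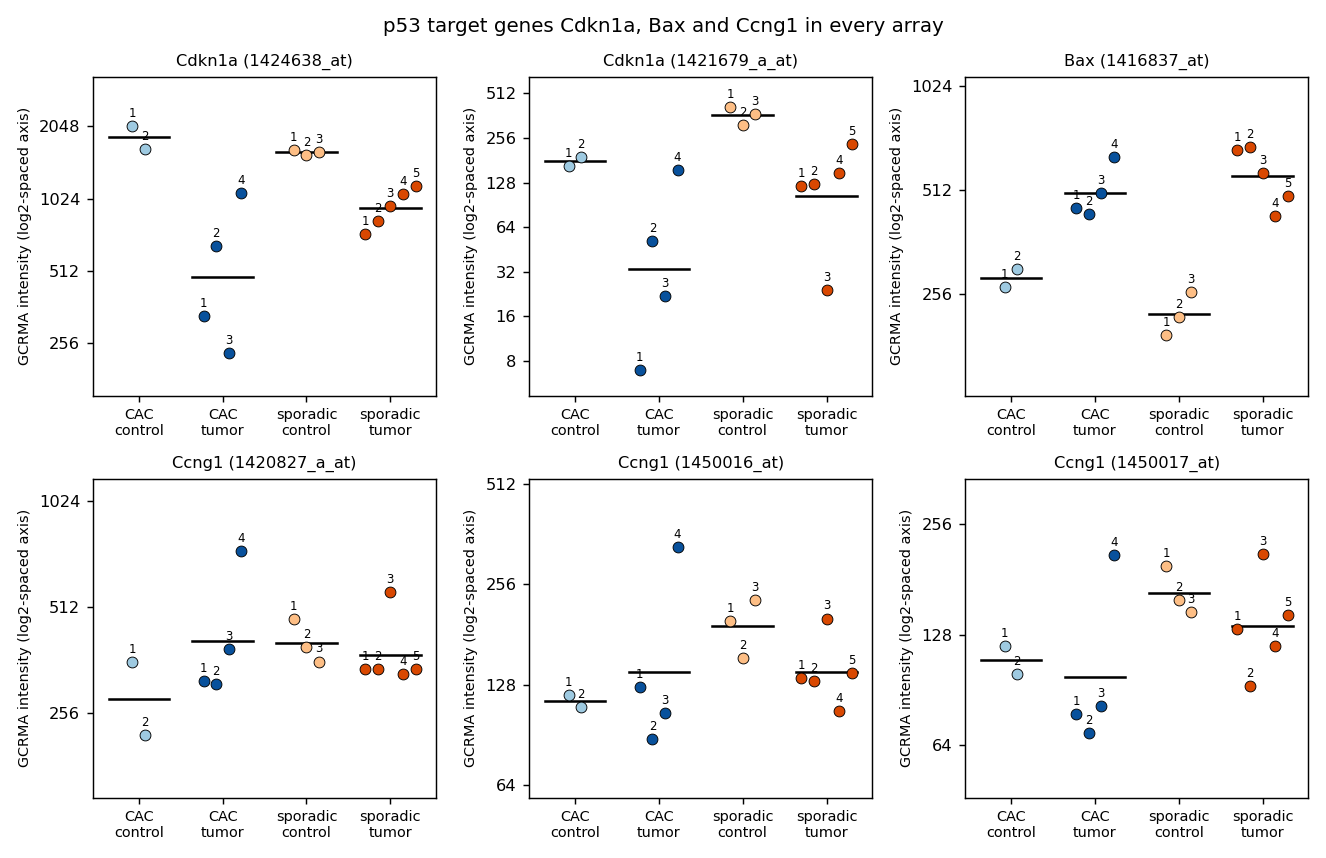
Intensity of the Cdkn1a, Bax and Ccng1 probe sets on each array (log2-spaced axis), with 1 point per array numbered by replicate and a bar at each group's geometric mean. CAC tumor 4 is the highest CAC tumor in each panel, and all tumors lie below the controls of their model for Cdkn1a and above them for Bax.

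Among the 4 target genes, Bax rose in both models, Mdm2 rose in sporadic tumors, and Ccng1 passed in neither model. Cdkn1a fell in CAC tumors on 1 probe set in the main fit, and in sporadic tumors instead with only the groups compared. CAC tumor 4 had the highest intensity of the 4 CAC tumors on all 7 bright probe sets of Mdm2, Cdkn1a, Ccng1 and Bax. Over all 10966 bright probe sets it was highest on 24.4%. Several of the 7 probe sets measure the same gene, so they are not independent. Of 19 bright p53 targets outside the 8 genes, CAC tumor 4 was highest on 7 (36.8%), among them Phlda3 and Zmat3, while tumors 1, 2 and 3 were highest on 5, 4 and 3. On Trp53 itself the highest CAC tumors were 1 and 3. CAC tumor 4 also had the highest summed colonocyte level of the CAC tumors, 27912 against 16277 to 21586, and the highest goblet level, 16887 against 5156 to 7462, and the part of this in its rank was not tested. The CAC tumors' SD of log2 intensity was 0.99 and 1.89 for Cdkn1a and 0.58 to 0.85 for Ccng1, where the median bright probe set had 0.26. CAC tumor 2 was lowest on 7 of the 12 bright probe sets, beside 17.9% of all bright probe sets. In the sporadic group no tumor was highest on more than 3 of the 7 target probe sets.

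Among the repair genes, Msh6, a mismatch recognition gene, rose in both models, with a CAC call that was lost in several settings. CAC tumors read 137, 126, 67 and 59 against 33 and 52 in their controls. Sporadic tumors read 177, 135, 190, 135 and 112 against 66, 67 and 51. Tumors and controls did not overlap, but CAC tumors 3 and 4 were close to CAC control 2. The changes were 1.13 ± 0.36 in CAC tumors (adjusted p = 0.0288, limma) and 1.27 ± 0.31 in sporadic tumors (adjusted p = 0.00594). The CAC call was lost after quantile normalization (adjusted p = 0.0673), with only the groups compared (0.163), and without CAC tumor 1 (0.0593), CAC tumor 2 (0.0655) or CAC control 1 (0.236). The sporadic call was kept in each of these settings that applies to it. The authors' corrected p-values for Msh6, from their test that is not stated, were 0.144 for the CAC model and 0.00296 for the sporadic model. The difference between the changes was -0.14 (adjusted p = 0.955), and most of the proliferation markers rose beside Msh6 in both models.

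Ogg1, the oxidised guanine glycosylase, did not pass in either tumor comparison. On 1430078_a_at the CAC tumors read 17, 9, 20 and 16 and their controls 14 and 17. The sporadic tumors read 48, 38, 50, 45 and 35 and their controls 53, 47 and 35. Tumors overlapped controls within each model, while every CAC array was below every sporadic array. The tumor changes were -0.05 (95% interval -0.69 to 0.59) and -0.05 (-0.59 to 0.49). CAC tumors differed from sporadic tumors by -1.52 ± 0.22 (adjusted p = 0.00110) and CAC controls from sporadic controls by -1.52 ± 0.31 (adjusted p = 0.00765), which cannot be told apart from the blocks. The control difference had an adjusted p of 0.0566 with only the groups compared and 0.0527 without CAC control 1. The other probe set, 1448815_at, read 37 on all 4 CAC tumors, 38 and 24 on their controls, 44 to 66 on sporadic tumors and 39 to 77 on sporadic controls. Its differences did not pass, with -0.47 between the tumors (adjusted p = 0.184) and -0.73 between the controls (adjusted p = 0.119). The 4 CAC tumors had no spread on this probe set, and whether 37 is a measured level was not tested.

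Mgmt, the alkylguanine repair gene, read 4 to 6 on every array of its 1 probe set, 1421309_at. These values are near the floor, so no level was measured in any group, and whether Mgmt differs between tumors and epithelium was not detectable with this probe set.

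**Figure D4:**
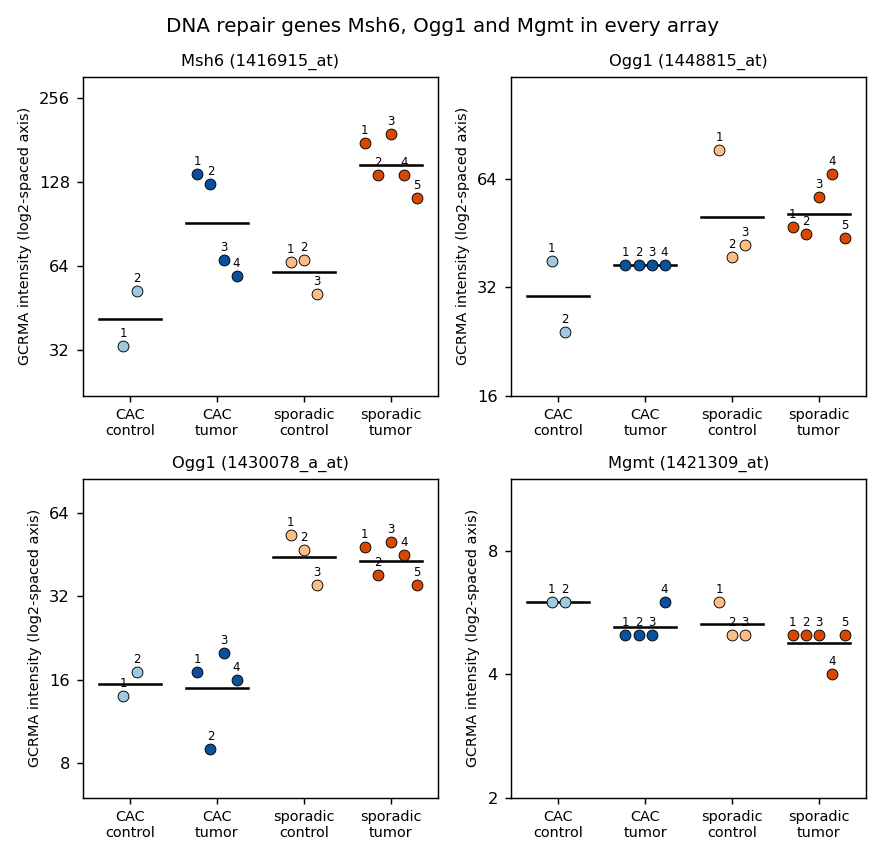
Intensity of the Msh6, Ogg1 and Mgmt probe sets on each array (log2-spaced axis), with 1 point per array numbered by replicate and a bar at each group's geometric mean. Msh6 is higher in all tumors than in the controls of their model, Ogg1 on 1430078_a_at splits by model from 9 to 20 against 35 to 53, and Mgmt stays at 4 to 6.

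Set directly against each other, CAC and sporadic tumors differed on 3 of the 15 probe sets, beside a background of 15.5% of all probe sets and 21.9% of bright ones. All 3 were lower in CAC tumors (background 7.58% lower, and 14.2% among bright probe sets): both bright Trp53 probe sets and Ogg1 on 1430078_a_at. None was higher by limma, also at an unadjusted p under 0.05 (background 7.88%). With a 2-fold minimum 1 of them passed, Ogg1 (background 4.26%), and 4 of the 15 did not overlap (background 14.0%). The same 3 were lower in CAC controls than in sporadic controls, beside a background of 14.0% called and 6.40% lower (16.7% and 12.1% among bright probe sets). None was higher there, and 1 was at an unadjusted p under 0.05 (background 7.61%), while 11 of the 15 did not overlap (background 34.4%). No probe set passed the test of a difference between the models' tumor changes by limma, beside a background of 7.69%, and 1 had an unadjusted p under 0.05, the near-floor Trp53 probe set.

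The other genes of the pathway were taken from 12 lists of p53 targets, p53 regulators, cell cycle and apoptosis genes and repair genes, with 123 of 143 listed genes measured. Each gene stands for its brightest probe set. Of 27 other p53 targets measured, 6 rose (22.2%) and 4 fell (14.8%) in CAC tumors, and 6 rose and 10 fell (37%) in sporadic tumors. Of all 13084 genes, 16% rose and 25.6% fell in CAC tumors, and 19.5% rose and 29.3% fell in sporadic tumors. The median change of these targets was 0.03 for the CAC model and -0.15 for the sporadic one, where all genes had -0.03 and -0.04.

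Phlda3, a p53 target that restrains Akt, had the largest rise among them. Its mean was 153 in CAC tumors against 8.12 in their controls and 199 against 7.23 in the sporadic model, changes of 4.23 ± 0.24 (adjusted p = 1.30e-07) and 4.78 ± 0.21 (adjusted p = 7.85e-09), with the controls near the floor. Plk3, a stress-responsive kinase, fell by 2.26 ± 0.24 in CAC tumors and by 4.27 ± 0.20 in sporadic tumors, and these changes differed from each other by 2.00 (adjusted p = 0.00164). Its means were 18.3 in CAC tumors against 88.0 in their controls. In the sporadic model they were 6.45 against 124, with the tumors near the floor. Btg2, an antiproliferative factor, fell by 3.03 ± 0.66 in sporadic tumors (adjusted p = 0.00329), and its CAC change of -1.57 ± 0.78 did not pass (adjusted p = 0.139). Perp, an adhesion protein of desmosomes, fell in both models, by 0.82 ± 0.25 and 1.29 ± 0.21. Pmaip1, which encodes the BH3 protein Noxa, fell by 1.49 ± 0.35 in sporadic tumors, and its CAC change of -1.10 did not pass (adjusted p = 0.0566). Bid, another BH3 protein, rose by 0.75 ± 0.22 in sporadic tumors and had 0.22 in CAC tumors (adjusted p = 0.571), and the models' changes did not differ by the test (adjusted p = 0.403).

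Among 13 p53 regulators and damage kinases measured, 2 rose and 1 fell in CAC tumors, and 6 rose and 2 fell in sporadic tumors, beside the shares of all genes given above. The fall in CAC tumors is Trp73, at 5 against 6, a single step near the floor; it is named after its values were seen. Atm, the kinase that responds to DNA breaks, rose by 1.49 ± 0.32 and 0.77 ± 0.27, from means of 11.5 and 16.9 in the controls. Chek2, a kinase downstream of Atm, rose by 0.74 ± 0.18 in CAC tumors (adjusted p = 0.00631). It had 0.06 in sporadic tumors (adjusted p = 0.866). Its means were 45.1 and 46.4 in CAC and sporadic tumors and 27 and 44.6 in their controls, so the CAC controls stood lowest. Trp53bp1, a break-repair scaffold, fell by 0.98 ± 0.33 in sporadic tumors (adjusted p = 0.0304). Its CAC change was -0.69 (adjusted p = 0.190). For neither gene did the models' changes differ by the test (adjusted p = 0.119 and 0.821). Of 6 CDK inhibitors, the p57 gene Cdkn1c rose by 3.17 ± 0.74 and 5.48 ± 0.63 from controls near the floor. Cdkn2b (p15) fell by 1.25 ± 0.24 and 1.08 ± 0.21, and Cdkn1b (p27) fell by 0.82 ± 0.28 and 0.99 ± 0.23. Of 11 genes of the BCL2 family, 2 rose and 1 fell in CAC tumors and 5 rose and 3 fell in sporadic tumors, beside the same shares. Bcl2l11, the BH3 gene of Bim, rose by 2.81 ± 0.38 and 4.01 ± 0.32, and Bok, a relative of Bax, rose by 2.13 ± 0.26 and 1.75 ± 0.22.

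Of 74 other repair genes measured, 15 rose (20.3%) and 3 fell (4.05%) in CAC tumors, and 18 rose (24.3%) and 6 fell (8.11%) in sporadic tumors. Over all genes 16% rose and 25.6% fell in CAC tumors and 19.5% rose and 29.3% fell in sporadic tumors. The shares of repair genes that rose are near this background of all genes, and the shares that fell are below it. The counts of the smaller lists that follow stand beside the same shares and are not taken as particular to them. None of the 3 repair genes that fell in CAC tumors was bright. Of the 35 bright repair genes, 14 rose in CAC tumors, and 14 rose and 4 fell in sporadic tumors. Of all 7059 bright genes, 28.2% rose and 21% fell in CAC tumors, and 32.6% rose and 29.2% fell in sporadic tumors. These shares were set side by side and not tested. The median change of the 74 genes was 0.13 and 0.04. In base excision repair, the route that Ogg1 opens, 5 of 18 genes rose in CAC tumors and 4 in sporadic tumors, and none fell by limma, with 1 lower in CAC tumors at an unadjusted p under 0.05. The abasic site nuclease Apex1 rose by 2.08 ± 0.19 and 1.29 ± 0.16, the ligase Lig1 by 1.44 ± 0.37 and 1.51 ± 0.31, and the break sensor Parp1 by 1.41 ± 0.35 and 1.25 ± 0.30. In nucleotide excision repair 4 of 14 rose in CAC tumors and 5 in sporadic tumors, among them Cetn2, Ddb1 and Rad23b. The 1 that fell, in sporadic tumors, is Gtf2h1 (-0.73, adjusted p = 0.00509), named after its values were seen. Ddb1 rose by 0.96 ± 0.16 and 0.86 ± 0.13.

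Among 20 genes of homologous recombination and the Fanconi pathway, 1 rose and 1 fell in CAC tumors, and 5 rose and 3 fell in sporadic tumors. Rad50, part of the complex that binds broken DNA ends, rose by 0.49 ± 0.16 in sporadic tumors (adjusted p = 0.0254). Its CAC change was 0.13, and the models' changes did not differ by the test (adjusted p = 0.439). Of the 7 end joining genes, Xrcc5, which encodes Ku80, rose by 0.78 ± 0.28 in CAC tumors (adjusted p = 0.0465). It had -0.03 in sporadic tumors, and the models' changes did not differ by the test (adjusted p = 0.231). Its means were 69.0 and 78.3 in CAC and sporadic tumors and 40.2 and 79.9 in their controls. Of 8 translesion genes, the polymerase gene Rev3l rose by 1.45 ± 0.34 and 2.33 ± 0.29, and Ube2b rose by 0.39 ± 0.09 in sporadic tumors. The CAC change of Ube2b was 0.02, and its changes in the models did not differ by the test (adjusted p = 0.175). Beside these genes, 10 of the 12 proliferation markers rose in CAC tumors and 11 in sporadic tumors, and 1 fell in each model. The part of these markers in the values of the repair genes was not tested.

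**Figure D5:**
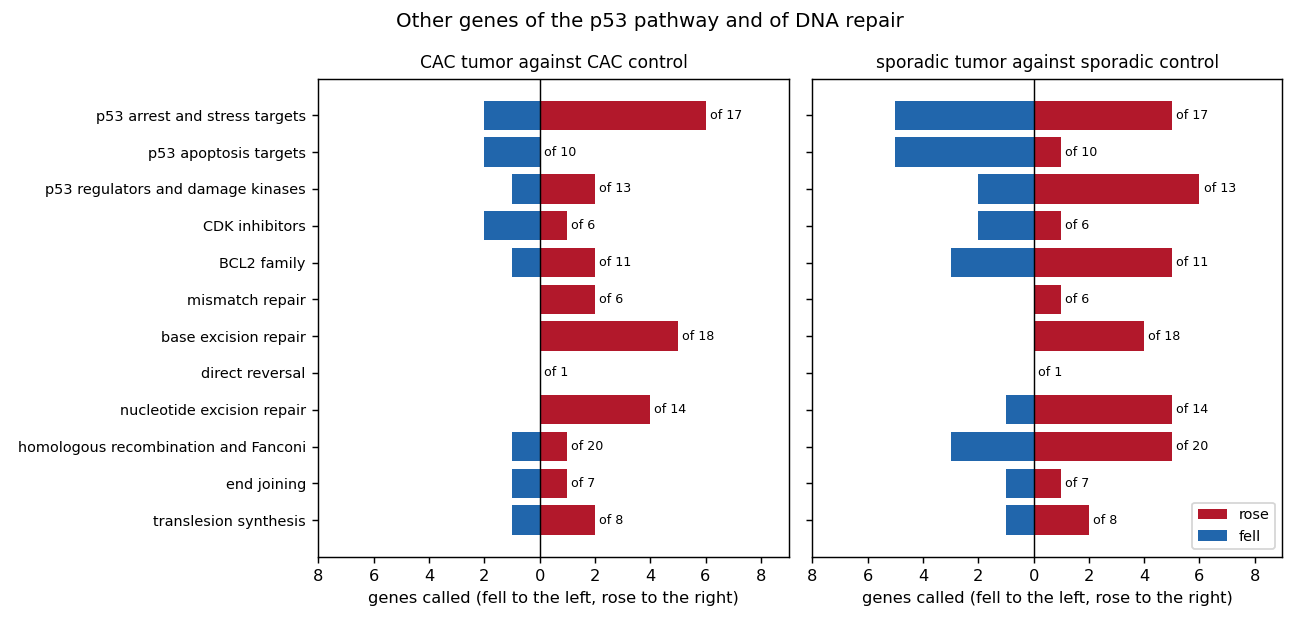
Number of genes that rose (red, right) and fell (blue, left) at an adjusted p under 0.05 in each of the 12 lists, in CAC tumors and in sporadic tumors against their controls, with the number measured beside each bar. Base excision repair and mismatch repair have only rises. Of 10 p53 apoptosis targets, 2 fell in CAC tumors and 5 in sporadic tumors, with 1 and 3 of these bright. Of all genes, 25.6% and 29.3% fell.

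The genes most like each member were sought by the Pearson correlation of log2 intensity over the 14 arrays among 6641 genes with a mean of at least 32. These coefficients describe arrays that share groups and blocks. Trp53 was closest to Hspb1 (r = 0.985) and Sorcs2 (r = 0.982), Bax to R3hdm1 (r = 0.97) and Bmp7 (r = 0.955), and Msh6 to Cpsf1 (r = 0.973) and Ssrp1 (r = 0.959). Cdkn1a was closest to Tmem30a (r = 0.943) and Adk (r = 0.938), and Mdm2 to Skp1 (r = 0.918) and LOC675709 (r = 0.91). Ogg1 was closest to Erp29 (r = 0.899) and Ngrn (r = 0.872). Ccng1, whose tumors and controls overlapped, had the lowest coefficients of the 7 genes above the floor, 0.82 with Mrpl38 and 0.81 with Gpx1.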

How the data were processed

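RNA of 14 samples was hybridised to 1-colour Affymetrix arrays. The deposited intensities are the authors' GCRMA values, per the submitters' processing notes, in whole numbers from 2 to 31599. The deposited table also holds, per the file headers, a ratio (the absolute fold change) and a corrected p-value for tumor against control in each model, from a test of the authors that is not stated. The deposited value table of the series held the same intensities in 317660 of 317660 cells.

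After removal of 64 control probe sets from 22690, log2 intensities without offset were fitted with 4 group means over 14 arrays in limma 3.58.1 (R 4.3.3; lmFit, eBayes, 10 residual and 0.543 prior degrees of freedom). Benjamini-Hochberg adjustment ran over all 22626 probe sets of each comparison at 0.05. Scanner files were not used here. The alternatives were a threshold of 0.01, a 2-fold minimum, quantile normalization, an offset of 16, a minimum group mean of 32, a trended robust variance, the compared groups alone, the other table, a replicate block and each array left out.

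Groups came from the labels. Results for some listed genes are not reported here. The members and lists were chosen with earlier results of these data known. All member probe sets are named, and from each list up to 3 genes with the largest absolute change among those called with a group mean of at least 32; the 2 most correlated genes are given for likeness. Symbols were updated through RefSeq, with 13084 genes from 21171 probe sets of 1 symbol, of which 10230 symbols matched as listed, 2367 through a synonym and 556 were kept as listed. On simulated arrays with 100 probe sets changed at each size among 22626, the fit recovered 54% at a log2 change of 1 and 91% at 2 for the CAC model, and 64% and 93% for the sporadic model. The changed probe sets were drawn from those with a geometric mean over 32 and a within-group SD of log2 intensity under 1. Far fewer were changed than were called on the real arrays, so these rates are not the sensitivity of the tests above.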

Additional observations from a re-analysis of the deposited data

Results flagged for a closer look

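Within groups of 4 or 5 tumors, a single array stood apart from the others by Dixon's criterion at its 95% value in 7 of the 27 sets of values tested. The rate of 1 in 20 that belongs to this criterion holds for continuous and independent values. It does not apply here, since values near the floor are tied whole numbers and several probe sets measure the same gene. For Trp53 on 1427739_a_at, CAC tumor 2 read 144, below the other CAC tumors at 201 to 212. For Cdkn1a on 1421679_a_at, sporadic tumor 3 read 24, below the others at 121 to 232. For Ccng1, sporadic tumor 3 read 564 on 1420827_a_at where the others had 330 to 341, and CAC tumor 4 read 211 on 1450017_at where the others had 69 to 82. Near the floor, Mdm2 on 1423605_a_at read 13 in CAC tumor 4 and 10 in the others. Mgmt read 6 in CAC tumor 4 and 4 in sporadic tumor 4, each a single step from the 5 of the other tumors in its group.

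The change from control to tumor differed between the models, by limma's test of the difference itself, for 3 of the 27 other p53 targets measured (11.1% with the positive sign, where 3.88% of all genes had it and 3.93% the negative one), a count that is not taken as particular to p53 targets. Plk2 and Sfn are named for this after their values were seen. Plk3 fell less in CAC than in sporadic tumors, with a difference of 2.00 on the log2 scale (adjusted p = 0.00164). The sporadic tumors were near the floor for Plk3, so the size of this difference is uncertain. Plk2, a kinase that p53 induces, rose by 2.23 in CAC tumors and had a change of 0.22 in sporadic tumors (adjusted p = 0.691), a difference of 2.01 (adjusted p = 0.0470). Its geometric means were 217 in CAC tumors, 46.3 in CAC controls, 246 in sporadic tumors and 212 in sporadic controls, so the CAC controls stood lowest. Sfn, the gene of the checkpoint protein 14-3-3 sigma, fell by 2.18 in sporadic tumors and had a change of -0.08 in CAC tumors (adjusted p = 0.997), a difference of 2.10 (adjusted p = 0.0204).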

How the results depend on the processing

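No result changed direction while called; 49 values that passed in neither setting changed sign, the largest at 0.63. The number of the 15 probe sets called in CAC tumors against their controls was 6 and ranged from 3 to 7 when each array was left out, with 3 without CAC control 1. Between CAC and sporadic tumors it was 3, ranged from 3 to 5, with 5 without CAC tumor 4, and was 1 with a 2-fold minimum. Between the controls it was 3, ranged from 2 to 4, and was 1 with only the groups compared. In sporadic tumors against their controls it was 5 and ranged from 5 to 6. For the difference of the changes it was 0 and ranged from 0 to 1, the 1 being the near-floor Trp53 probe set 1438808_at without sporadic control 3. Leaving out probe sets with less specific suffixes left the counts as they were, since the 15 hold none, and fitting only the groups compared is the main fit for the difference of the changes. The settings not named here left each count within 1.5 times its value. Among single probe sets, 27 values changed their call, 16 lost and 11 gained it, and those of bright probe sets that matter to the text stand beside the results. Ccng1 on 1450017_at passed between the tumors without CAC tumor 4 (-0.83, adjusted p = 0.0424), and Mdm2 on 1427718_a_at passed in CAC tumors with the minimum mean of 32 (adjusted p = 0.0493).

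With the replicate number as a replicate block, 5 probe sets passed between CAC tumors and controls and 6 between sporadic ones. Bax in CAC tumors then had a change of 0.80 and an adjusted p of 0.0560, and Cdkn1a on 1421679_a_at in sporadic tumors -2.59 and 0.0491. The numbers do not pair the samples: tumors are single mice and controls are pools, and deviations of same-numbered arrays correlated at -0.03 and -0.04 for CAC and at 0.05, 0.02 and -0.08 for sporadic arrays. The CAC control group has 2 arrays, which limits every comparison with it, and probe sets near the floor carry whole-number steps and no usable level.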

Other observations

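Gadd45a, picked after its values were seen and a p53 target of the stress response, fell by 1.99 in CAC tumors and by 2.00 in sporadic tumors on the log2 scale.

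Among the sporadic tumors, tumor 5 was highest on 9 of the 19 bright p53 targets outside the 8 genes (47.4%), beside 16.3% of all bright probe sets. It also had the highest summed goblet level of its group, 7048 against 2135 to 6436, and the lowest proliferation level, 5425 against 6313 to 9677. Their part in its rank was not tested. This tumor and CAC tumor 1 were picked after their values were seen. CAC tumor 1 was highest on 17 of 35 bright repair genes (48.6%), beside 26.1% of all bright probe sets, and it also had the highest Msh6 of the CAC tumors and the highest summed proliferation level, 7546 against 5661 to 6790. The same tumor was highest in the summed fibroblast and matrix level, 12536 against 5275 to 8499, and in the macrophage and neutrophil level, 15308 against 3857 to 7625, as well as in the endothelial and smooth muscle levels, and lowest in colonocytes, 16277 against 20874 to 27912. The part of these levels in its rank was not tested.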
